A study of Delphinium anthriscifolium with 89 samples.

Results

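The leaf libraries were set against the carpel libraries of floral stage S16 in *Delphinium anthriscifolium*, a larkspur of the buttercup family. Libraries were assigned by their sample titles, which gave 4 Leaves libraries and 3 Carpels S16 libraries, 7 of the 89 in the series. Both groups were labelled wild type (WT), and no treatment is named for them. The design text places the bracts, and as worded possibly the leaves too, directly below flower buds at S9, and S16 is the latest of the 4 floral stages sampled. The labels give no plant age and do not say whether the replicates are separate plants. The p-values therefore reflect how much these libraries vary, and that variation may be technical. A second pair of WT groups, Bracts (4 libraries) and Carpels S12 (3 libraries), was used as a comparison of a leaf-like organ with carpels that shares no library with the first pair.

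Leaves are the main photosynthetic organs of a plant, and their mesophyll cells devote much of their RNA to the machinery of light capture and carbon fixation. Carpels are the innermost organs of the flower: they enclose the ovules, receive pollen at the stigma and become the fruit. In larkspurs the carpels become dry follicles, and the bracts are leaf-like organs that subtend the flowers. The values are counts per transcript feature of an assembly with IDs of the form DN_c_g_i, and the files do not pair these IDs with gene names. Features are therefore described by ID and by the organs in which they were high, and no photosynthesis, ovule or cell cycle gene is named. RNA was taken from whole organs, so fewer cells of a type and less RNA per cell cannot be told apart.

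The 4 Leaves libraries held between 10815398 and 11996167 estimated counts, and the 3 Carpels S16 libraries held 12482019, 13292619 and 7364928. On the CPM scale, where every library is brought to the same total, 3 counts were worth 0.226 to 0.407, a floor that covers counting error only. Features with a count numbered 21506 to 21974 in Leaves, against 22708, 23207 and 15546 in Carpels S16 replicates 1, 2 and 3. The mean was 21820 ± 218 in Leaves (SD, n = 4) and 20490 ± 4286 in Carpels S16 (SD, n = 3), a difference of 1336 (exact permutation test over libraries, two-sided, p = 0.857). Without carpel replicate 3 the difference turned to -1135, and the exact permutation p of 0.133 is the smallest that 4 against 2 libraries can give. The 100 most abundant features held 22.73% to 24.96% of the counts in Leaves, against 14.8%, 14.2% and 22.9% in Carpels S16 replicates 1, 2 and 3 (two-sided exact permutation p = 0.171). The 10 most abundant held 9.30% ± 0.688 in Leaves and 4.05% ± 1.74 in Carpels S16, with no overlap (two-sided exact permutation p = 0.0571, the smallest that 4 against 3 can give).

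Carpel replicate 3 stood apart from its fellows. It held 49 features with a rounded count of 1 to 4 and 53 with a count of 5 to 9, where the other 6 libraries held 2476 to 2626 and 1274 to 1347. Its log2 CPM values correlated with those of carpel replicates 1 and 2 at 0.81 and 0.80 across features, while replicates 1 and 2 correlated at 0.98 and pairs of Leaves libraries at 0.94 to 0.96. Of 11840 features at 10 CPM or more in both carpel replicates 1 and 2, 352 were at 0 in replicate 3, and 162 of those were at 10 CPM or more in every leaf library. In the other direction, 5 of the 11220 features at 10 CPM or more in replicate 3 were at 0 in both others. Among the 85 wild-type libraries 11 had fewer than 100 features at counts of 1 to 4, and all 7 libraries numbered replicate 3 at S16 had 18190 detected features or fewer. The main counts below are given with this library and without it, and other values are with it unless stated.

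**Figure D1:**
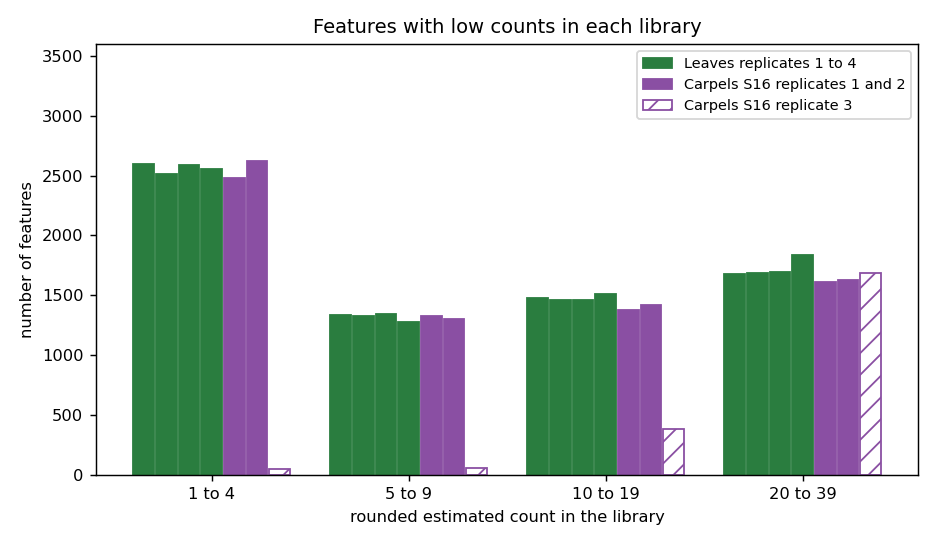
Number of features (y axis) whose rounded estimated count fell in each range (x axis), 1 bar per library: 4 Leaves libraries in green, Carpels S16 replicates 1 and 2 in solid purple and replicate 3 hatched. Carpel replicate 3 has 49 features at counts of 1 to 4 and 382 at 10 to 19, while all 7 libraries have between 1610 and 1836 features at counts of 20 to 39.

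Leaves and S16 carpels differed in over 1 in 5 of the features tested in the main fit. Of 18755 features tested, 2208 were higher and 1788 lower in Leaves, 21.3% in either direction (edgeR quasi-likelihood test, Benjamini-Hochberg adjusted p under 0.05). The higher features were 11.8% of those tested and the lower features 9.53%, so 55.3% of the calls lay on the leaf side. Differences of 2-fold or more numbered 1890 higher and 1491 lower, and differences of 8-fold or more numbered 468 and 512. The median log2 fold change, Leaves over Carpels S16, was 1.73 among the higher features, -1.84 among the lower ones and 0.04 over all features tested. Of the 14759 features that were not called, 5188 had an estimate within 2-fold at 2 standard errors to either side. The libraries of the groups did not overlap in 2190 of the 2208 higher and 1770 of the 1788 lower features. This largely follows from the calls, made on the same libraries, and is no separate support for them. The share without overlap over all features tested is not given here.

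Leaving out carpel replicate 3 gave more calls, 3547 higher (18.2% of 19456 tested) and 2996 lower (15.4%). The coefficient of variation between libraries that all features share was 0.448 with this library and 0.27 without it. Of the features called with it, 2182 of 2208 higher and 1742 of 1788 lower kept their call without it, and 0 had the opposite call. Differences of 2-fold or more then numbered 2571 higher and 1927 lower, those of 8-fold or more 498 and 614, and the median log2 fold changes were 1.45 and -1.33. Of the features not called without it, 7382 had an estimate within 2-fold at 2 standard errors. Another 1365 higher and 1254 lower features were called without it and not with it. Replicate 3 was the lowest carpel library for 1401 of the 2208 higher features and the highest for 526. For the 1788 lower ones it was the highest for 1214 and the lowest for 435. How often it was the lowest or highest over all features tested is not given here. Leaving out any other library gave fewer calls, 1466 to 1788 higher and 1039 to 1392 lower, with the fewest of each without Leaves replicate 2. With each of the 7 libraries left out in turn, 1305 higher and 897 lower features were called every time.

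**Figure D2:**
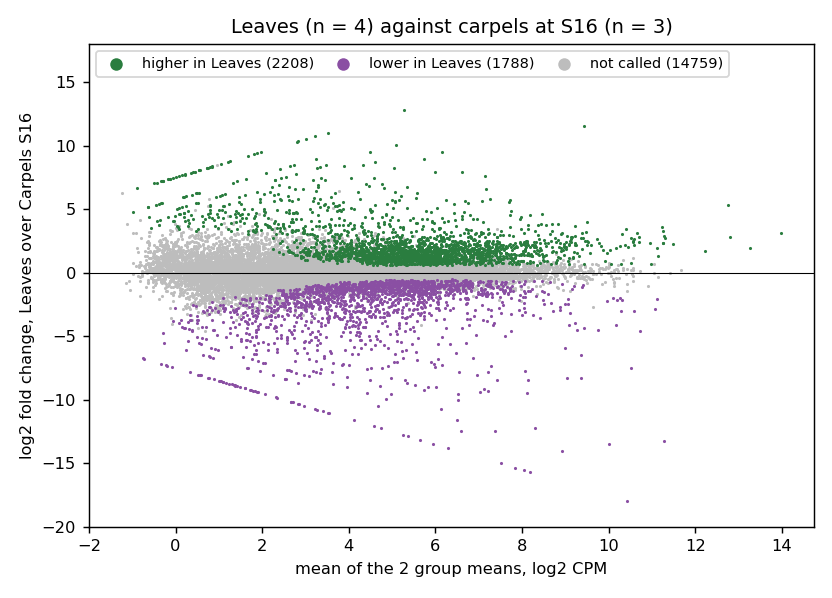
Each point is 1 of the 18755 features tested, with the log2 of its mean level in CPM over the 2 groups on the x axis and its log2 fold change, Leaves over Carpels S16, on the y axis. Features higher in Leaves (2208, green) and lower in Leaves (1788, purple) lie to both sides of the uncalled ones (14759, grey). The straight rows of points at the upper and lower edge are features with no count in the other group. Their fitted fold changes depend on the small count that the fit adds and are no bound.

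The leaf side held more of the abundant features. The tested features were split into 4 equal parts by mean CPM: in the highest part 1100 were higher and 468 lower in Leaves, and in the lowest part 178 were higher and 299 lower. Calls were more frequent at higher levels, with 10.2%, 17.2%, 24.5% and 33.4% called from the lowest to the highest part. Without carpel replicate 3 the highest part held 1389 higher and 681 lower, and the lowest part 428 and 568. Together the 2208 higher features took 38.3%, 43.6%, 37.9% and 39.5% of all counts in the 4 Leaves libraries, against 13.8%, 13.7% and 10.1% in Carpels S16 replicates 1, 2 and 3. The 1788 lower features took 3.51% to 4.02% of the counts in Leaves, against 16.3%, 15.6% and 25.3% in the carpel libraries. These shares describe the features chosen by the same contrast, and a long transcript draws more reads than a short one at the same number of molecules.

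Few features had counts in only 1 of the organs compared, at this depth. At 0 counts in all 3 carpel libraries and at 1 CPM or more in every leaf library were 24 features, with a median of 3.54 CPM of the library total in Leaves and a highest mean of 71 CPM. At 0 counts in all 4 leaf libraries and at 1 CPM or more in every carpel library were 60 features, or 96 when carpel replicate 3 was set aside, with a median of 7.79 CPM and a highest mean of 3044 CPM in Carpels S16. The feature with the highest mean was at 2026, 2800 and 4306 CPM in the carpel libraries, from lowest to highest, and was at least 46360-fold lower in Leaves, against a floor of 3 counts over the 4 leaf libraries. All 24 and all 60 were called by edgeR, which their choice from the same libraries all but ensured. The 24 had their highest mean level elsewhere in bracts for 18, stamens for 3, sepals for 2 and carpels at S9 to S12 for 1. The 60 had it in stamens for 25, carpels at S9 to S12 for 23, sepals for 9 and petals for 3, and 33 of them were at 0 counts in all 4 Bracts libraries too. Of the 24 and the 60, 0 were at 0 counts in all of the other wild-type libraries.

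The most abundant of the strongly different features are given by ID, chosen as the highest in mean CPM in their organ among features called, at least 8-fold different and without overlap of the groups. DN47188_c2_g1_i1|m.94370 was at 32900, 32010, 24060 and 27810 CPM in Leaves replicates 1 to 4, against 3723, 3558 and 2980 CPM in Carpels S16 replicates 1 to 3. All leaf libraries were high and all carpel libraries low, with a log2 fold change of 3.09 (SE 0.22, edgeR adjusted p = 0.000183). This feature is 1 of 3 in its assembly gene, and reads shared with the other two are divided between them by estimation, so its level is uncertain. In other organs it was at 34060, 17580, 12510 and 31390 CPM in the Bracts libraries and at 2805, 3241 and 2876 CPM in Carpels S12, and it averaged 5864 CPM over sepals, 1687 over petals and 1096 over stamens.

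DN46319_c2_g2_i1|m.82153, the only feature of its assembly gene, was at 10490, 16840, 12440 and 14390 CPM in Leaves, against 408, 325 and 273 CPM in Carpels S16. It was the second of the abundant leaf-side features, with a log2 fold change of 5.33 (SE 0.3, edgeR adjusted p = 0.000126). Its level over the carpel stages was 31.3 ± 28.1 CPM at S9 (SD, n = 2), 68.1 ± 15.1 at S10, 167 ± 11.3 at S12 and 336 ± 68 at S16 (SD, n = 3 each). Even the highest of these carpel stages lay far under the 7960 ± 2720 CPM in Bracts (SD, n = 4) and the 4123 CPM averaged over sepals. Both abundant leaf-side features were thus highest, outside Leaves, in bracts and then in sepals.

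On the carpel side DN36622_c0_g1_i1|m.18158 was at 0.405, 0.0934, 0.455 and 1.08 CPM in Leaves, 21 counts in all, against 2499, 1650 and 10810 CPM in Carpels S16. The leaf libraries were near the floor while carpel replicate 3 was over 4 times as high as either fellow. The log2 fold change was -13.24 (SE 1.05, edgeR adjusted p = 0.000275), and -11.97 without carpel replicate 3 (edgeR adjusted p = 7.27e-06, with 1.17e-62 to 0.0146 over 15 alternatives). In younger carpels it was at 2.44 ± 0.461 CPM at S9 (SD, n = 2), 26.2 ± 38.6 at S10 and 224 ± 108 at S12 (SD, n = 3 each). Its means over bracts, sepals, petals and stamens lay between 1.01 and 6.79 CPM, so outside the carpels it was low in each organ.

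DN47864_c1_g1_i1|m.105481 was at 36.9, 69.5, 383.3 and 48.5 CPM in Leaves, against 2576, 2174 and 5036 CPM in Carpels S16. Leaves replicate 3 was far above the other leaf libraries and still below every carpel library. The log2 fold change was -4.60 (SE 0.89, edgeR adjusted p = 0.0086), and it was called in all 15 alternatives (edgeR, DESeq2 or limma adjusted p from 1.87e-08 to 0.0346). Its pattern in the other organs differed from that of DN36622: it averaged 2614 CPM over sepals, 1624 over stamens and 1428 over petals. In younger carpels it was at 9.71 ± 1.41 CPM at S9 (SD, n = 2), 55.9 ± 28.7 at S10 and 332 ± 253 at S12 (SD, n = 3 each), and in Bracts at 397 ± 245 (SD, n = 4).

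**Figure D3:**
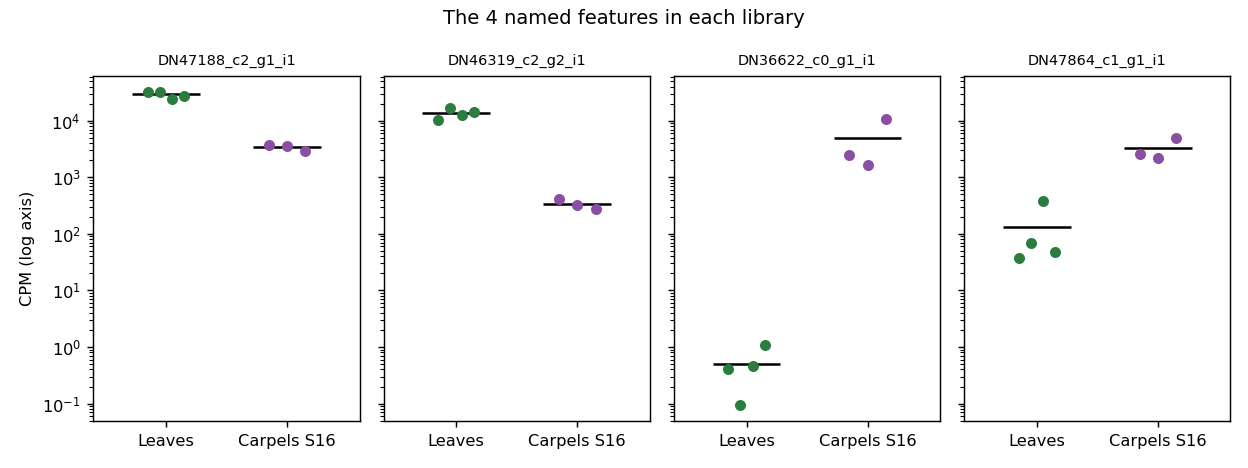
Level in CPM (logarithmic y axis) of the 4 features named by abundance, 1 point per library, with 4 Leaves libraries in green to the left and 3 Carpels S16 libraries in purple to the right in each panel, and the group mean as a bar. The groups do not overlap in any panel, as the choice of features required, and Leaves replicate 3 lies at 383.3 CPM in the rightmost panel against 36.9 to 69.5 in the other leaf libraries.

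Most of these differences were found again between other libraries of a leaf-like organ and a carpel. Bracts and Carpels S12 held between 7135899 and 12726312 estimated counts and 21300 to 22799 detected features, and every one of these 7 libraries had 1963 or more features at counts of 1 to 4. In a separate edgeR fit of them, 5027 of 19328 features tested were higher in Bracts (26%) and 4915 were lower (25.4%). Of the 2208 features higher in Leaves 2189 were tested there, and 1620 of these (74%) were higher in Bracts, 41 were lower and 528 were not called. Of the 1788 features lower in Leaves 1716 were tested, and 1188 (69.2%) were lower in Bracts, 76 were higher and 452 were not called. The 1620 and 1188 were 32.2% of all features higher and 24.2% of all features lower in Bracts.

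The sizes went the same way. The median log2 fold change, Bracts over Carpels S12, was 1.39 for the features higher in Leaves and -1.23 for those lower in Leaves, beside -0.03 over all features tested. Of the features at least 8-fold different between Leaves and Carpels S16, 405 of 449 tested were higher in Bracts (90.2%) and 357 of 443 were lower (80.6%). With the wider lists called without carpel replicate 3, 2314 of 3501 (66.1%) and 1665 of 2794 (59.6%) had the same call. Of the 4 named features, DN47188, DN46319 and DN36622 had Bracts over Carpels S12 log2 fold changes of 2.98, 5.55 and -7.80 (edgeR adjusted p = 0.000441, 1.18e-05 and 9.82e-06). DN47864 was at 0.24 (SE 0.62, edgeR adjusted p = 0.762) and was not called.

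**Figure D4:**
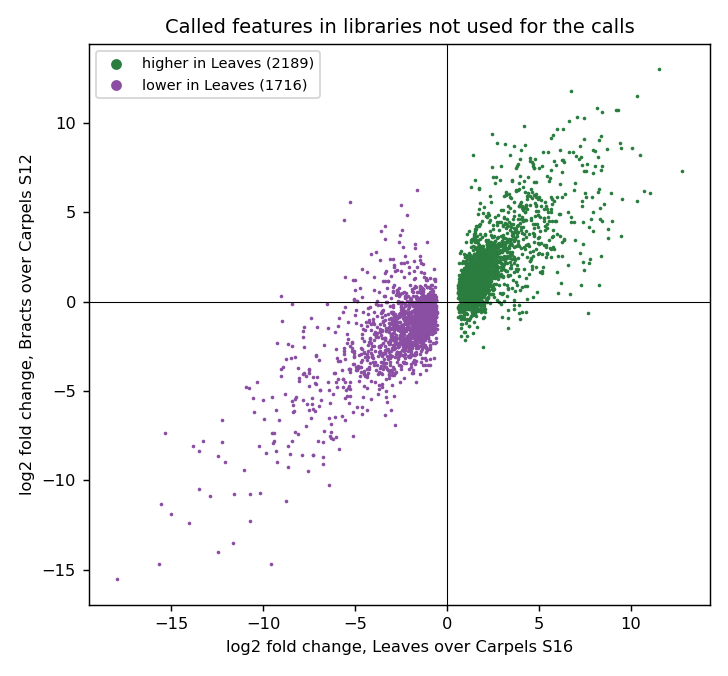
Log2 fold change of Leaves over Carpels S16 (x axis) against that of Bracts over Carpels S12 (y axis), 1 point per feature called between Leaves and Carpels S16 and tested in both contrasts. The 2189 features higher in Leaves (green) lie mostly above 0 on the y axis, with 1620 called higher in Bracts, and the 1716 lower in Leaves (purple) mostly under 0, with 1188 called lower in Bracts; the 14 libraries of the 2 axes are separate.

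The other organs of the series showed where the called features were high apart from the organs compared. Organ-enriched sets were defined on the 78 wild-type libraries outside the Leaves and Carpels S16 groups, from 23431 features, with a level 4-fold or more above that of every other kind of organ. Features enriched in bracts lay on the leaf side: of 844 members 622 were tested, 273 were higher and 4 lower, with a median log2 fold change of 2.05. Features enriched in carpels of S9 to S12 lay on the carpel side: of 335 members 284 were tested, 6 were higher and 91 lower in Leaves, with a median of -0.60. The median over all 18755 features tested was 0.04, and 11.8% of them were higher and 9.53% lower. Without carpel replicate 3, 372 were higher and 9 lower of 688 bract set members tested, and 14 higher and 109 lower of 296 carpel set members. Over all features tested in that fit 18.2% were higher and 15.4% lower.

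The summed level of these sets stood in for organ markers, which the files do not name. The bract set summed to 73420 to 90020 CPM in Leaves, against 20520, 21040 and 14470 CPM in the carpel libraries, where the bracts themselves had 79620 to 122800. The carpel set summed to 9425 to 15710 CPM in Leaves, against 27080, 26400 and 39670 CPM in Carpels S16, where younger carpels had 43580 to 96940. Neither sum overlapped between the groups: on the bract set the leaf libraries came within or near the range of the bracts, and on the carpel set the S16 carpel libraries were nearer to younger carpels than the leaf libraries were. Of the 335 carpel-enriched features 279 to 288 had a count in each leaf library, so most were not at 0 in Leaves.

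Sets enriched in stamens and in sepals also lay on the carpel side. Of 547 features enriched in stamens, the pollen-bearing organs that surround the carpels, 228 were tested, 9 were higher and 85 lower in Leaves, with a median of -1.37. Of 85 features enriched in sepals 67 were tested, 3 were higher and 15 lower, with a median of -0.92. Of 9 features enriched in petals 5 were tested, 2 were higher and 1 lower, with a median of 0.60. Without carpel replicate 3 the counts were 12 higher and 128 lower of 265 tested for stamens. They were 5 and 26 of 73 for sepals, and 2 and 1 of 5 for petals. Over all features tested in that fit the shares were 18.2% higher and 15.4% lower.

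The summed level of these sets in the carpel libraries lay under the range of their own organs, by less for sepals than for stamens. The stamen set summed to 977 to 1062 CPM in Leaves, against 4062, 3623 and 5240 CPM in Carpels S16, where the stamen libraries had 41920 to 158100. The sepal set summed to 375 to 595 CPM in Leaves, against 1707, 1676 and 1492 in Carpels S16, where the sepal libraries had 4501 to 50340. The petal set summed to 13.8 to 30.3 CPM in Leaves, against 56.1, 64.2 and 47.1 in Carpels S16, where the petal libraries had 374 to 2423. All 3 sums were thus higher in every carpel library than in any leaf library, and the part of RNA from neighbouring organs in the carpel values was not tested. The mean log2 CPM over set members separated the groups for stamens only. For petals it was -0.21, -0.31 and -0.74 in Carpels S16, against -0.27 to 0.36 in Leaves. For sepals carpel replicate 3, at 0.94, lay under Leaves replicates 2 and 4, both at 1.10. Of the 1788 features lower in Leaves 101 belonged to these 3 sets and 1687 did not. Among all 18755 features tested, the stamen, sepal and petal sets held 228, 67 and 5.

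The organ in which a feature was highest, apart from the organs compared, differed between the 2 sides. Of the 2208 features higher in Leaves 70.3% had their highest other mean in bracts, against 31.0% of all features tested, and 13.4% had it in sepals, against 13.1%. Without carpel replicate 3 the share highest in bracts was 62.5%. Of the 1788 lower in Leaves, 40.2% had their highest other mean in stamens, against 24.7% of all tested, and 30.2% in carpels of S9 to S12, against 22%. Bracts held 3.92% of the lower features. For features 8-fold different or more the shares were similar, with 67.9% of the higher ones highest in bracts and 37.9% and 31.2% of the lower ones highest in stamens and younger carpels. The 4 Bracts libraries and the floral libraries differ in number, which bears on how often an organ has the highest mean.

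Across the 30 wild-type groups the features higher in Leaves had a median level of 6.06 log2 CPM in Leaves, 5.68 in Bracts and 4.38 in Carpels S16. In sepals of S10 and S12 the median was 4.87 to 5.08, above that of every carpel and stamen group. The lowest median was 2.84, in stamens at S16, where the median over all features tested was also low, at 3.23 beside 4.12 in Leaves, and replicate 3 had 11345 detected features. The features lower in Leaves had a median of 3.21 in Leaves, 3.49 in Bracts and 5.13 in Carpels S16. Over the carpel stages their median was 4.66 at S9, 4.65 at S10, 4.89 at S12 and 5.13 at S16, and in stamens of S9 to S12 it was 4.61 to 4.84. For the 512 lower features of 8-fold or more the stages lay further apart, with medians of 2.47 at S9, 2.54 at S10, 3.46 at S12 and 4.32 log2 CPM at S16, beside -0.60 in Leaves and 0.27 in Bracts. Levels in Leaves and Carpels S16 follow from the choice of these features, while the levels in the other groups do not.

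**Figure D5:**
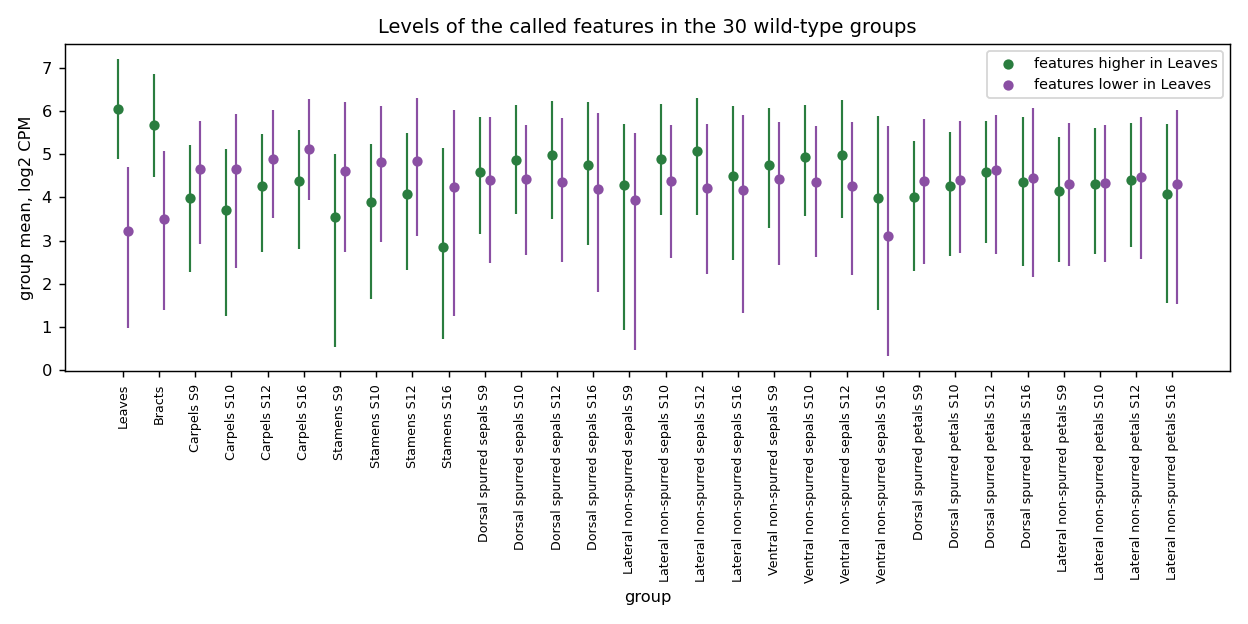
Level of the called features in each of the 30 wild-type groups, as the median (point) and the range from the 25th to the 75th percentile over features (line) of the group mean in log2 CPM on the y axis. Features higher in Leaves (2208, green) have medians of 6.06 in Leaves and 5.68 in Bracts, and features lower in Leaves (1788, purple) have their highest median, 5.13, in Carpels S16; 3 of the S9 to S16 carpel medians for the lower features lie under 5.

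Features of the same assembly gene, which may be isoforms or close copies, went opposite ways in some genes. Among 1472 assembly genes with more than 1 tested feature, 24 (1.63%) had a feature higher and another lower in Leaves, and 59 did without carpel replicate 3. Of all 18755 features tested, 11.8% were higher and 9.53% lower in Leaves. Whether 24 is fewer than unrelated features would give was not tested. In 23 of the 24 neither feature overlapped between the groups, which also largely follows from the calls. In 51 assembly genes 2 or more features were higher and none lower, and in another 51 genes 2 or more were lower and none higher. These counts are uncertain, because reads shared by near-identical features are divided between them by estimation. Of the called features, 448 of 2208 higher and 413 of 1788 lower belong to an assembly gene with more than 1 feature. The share of all features tested that belong to such a gene is not given here.

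The most abundant of the opposite pairs was in assembly gene DN45138_c1_g2, which has 2 features. Its feature DN45138_c1_g2_i3|m.64525 was at 391.1, 425.2, 422 and 339.8 CPM in Leaves, against 284.6, 263.6 and 216.4 CPM in Carpels S16 (log2 fold change 0.63, SE 0.19, edgeR adjusted p = 0.0461). DN45138_c1_g2_i2|m.64522 was at 121.8, 97.8, 155.8 and 136.3 CPM in Leaves, against 189, 189.9 and 340.8 CPM in Carpels S16 (log2 fold change -0.91, SE 0.27, edgeR adjusted p = 0.0476). The leaf libraries were above the carpel libraries for the first and under them for the second, in every case. Of the counts of the pair, DN45138_c1_g2_i3 held 76.3%, 81.3%, 73.0% and 71.4% in Leaves, against 60.1%, 58.1% and 38.8% in Carpels S16. This separation follows from the choice of a pair with opposite calls and no overlap, and is no separate support for the calls. Both calls were close to the threshold: 9 of 15 alternatives lost that of DN45138_c1_g2_i3 and 11 of 15 that of DN45138_c1_g2_i2, which had a log2 fold change of -0.56 without carpel replicate 3 (edgeR adjusted p = 0.0526, and 0.011 to 0.253 over the alternatives). In the separate fit of Bracts over Carpels S12 the log2 fold changes were 0.62 (edgeR adjusted p = 0.0249) and -2.68 (edgeR adjusted p = 0.000212).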

How the data were processed

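The authors extracted total RNA with a plant RNA kit from TIANGEN and prepared sequencing libraries with a Fast RNA-seq kit, per the labels' protocols. TopHat2 and RSEM are named in the submitters' processing notes. Reference, annotation, read filters and strandedness: not given in the sources used here. Per feature, the authors deposited unnormalized estimated counts for 32115 features in 26584 assembly genes, and each column of the 7 libraries holds between 93.3% and 98.3% whole numbers. If the counts do not use strand, overlapping transcripts from opposite strands cannot be told apart.

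Before testing, the estimated counts were rounded to whole numbers. Sample titles gave the groups. edgeR 4.0.16 in R 4.3.3 gave quasi-likelihood F tests (robust) after filterByExpr and TMM scaling, with only the groups compared in a fit and a Benjamini-Hochberg adjusted p under 0.05. The SE of a log2 fold change is its size over the square root of F. CPM values use TMM factors, except the floor of 3 counts and those of features at 0 in a group. Alternatives were DESeq2 1.42.0 and its size factors, limma 3.58.1 voom with sample quality weights, no filter, the replicate number as a block, other libraries sharing the spread, thinned libraries, counts summed per assembly gene, a 2-fold set rule and each library left out. The test was checked on simulated data.

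Features named are, among those called, 8-fold different and without overlap, the 2 with the highest mean CPM in each organ, and the most abundant pair of opposite features without overlap in 1 assembly gene. The groups, lists and rules were chosen with earlier results of these data known. Gene lists by name were not analysed here. No pair of replicates agreed within sampling noise (lowest chi-square per feature 7.33). The labels do not say that equal replicate numbers mark pairs, so they were not treated as pairs. Deviations of same-numbered Leaves and Carpels S16 libraries from their group means correlated between -0.03 and 0.00. Those of differently numbered libraries correlated between -0.08 and 0.07. With carpel replicate 3 far from its fellows, these values cannot show whether the libraries are paired. The 4 silencing libraries were not used here.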

Additional observations from a re-analysis of the deposited data

Results flagged for a closer look

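Among 15 measures examined over the 4 Leaves libraries, 2 had a library far from the others, and chance alone gives about 1 in 20. The share of counts in the 100 most abundant features was 24.96% in Leaves replicate 2, where the other leaf libraries lay between 22.7% and 23.0%. DN47864_c1_g1_i1|m.105481 was at 383.3 CPM in Leaves replicate 3, where the other leaf libraries lay between 36.9 and 69.5 CPM. Without that library the log2 fold change of this feature, Leaves over Carpels S16, was -5.98 in place of -4.60, and the call was kept.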

How the results depend on the processing

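Across the alternatives, the counts of features higher and lower in Leaves kept both directions, and their size depended on the test and on the libraries. limma voom with sample quality weights, which gave Carpels S16 replicate 3 a weight of 0.0676, called 4322 higher and 4008 lower, and a spread shared by all wild-type libraries called 1212 and 1142. Leaving out 1 library at a time gave 1466 to 3547 higher and 1039 to 2996 lower, the highest of each without carpel replicate 3. Calls made both in Leaves over Carpels S16 and in Bracts over Carpels S12 numbered 2806 higher and 2271 lower with voom, 1026 and 734 with the shared spread, and 1141 to 2314 and 724 to 1665 with 1 library left out. Bracts over Carpels S12 kept between 4189 and 5686 higher and between 3644 and 5665 lower features over 12 alternatives.

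Numbers shared by Leaves and Carpels S16 libraries are not known to mark pairs. With the replicate number as a block, 905 features were higher and 545 lower, and 689 and 422 of them had the same call between Bracts and Carpels S12 in a fit there with the same block. The replicate block also gave 139 higher and 2 lower bract-enriched features, 7 lower sepal-enriched, 0 higher petal-enriched, 2 higher and 28 lower stamen-enriched, 0 higher and 54 lower carpel-enriched features, and 2 assembly genes with opposite calls. No sample pairing is given by the labels, and the cause of the lower counts was not tested.

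For the organ-enriched sets, voom gave 14 lower bract, 8 higher and 32 lower sepal, 18 higher stamen and 26 higher carpel features. The shared spread of all wild-type libraries gave 2 lower bract, 5 higher stamen and 0 higher carpel features, DESeq2 gave 7 higher sepal features and thinned libraries gave 0 higher petal features. A 2-fold set rule makes the sets larger by construction and gave 613 higher and 12 lower bract, 15 and 54 sepal, 5 and 2 petal, 19 and 177 stamen, and 11 and 187 carpel features. With 1 library left out, the ranges were 2 to 9 lower bract, 3 to 5 higher and 11 to 26 lower sepal, 0 to 2 higher petal, 4 to 12 higher and 59 to 128 lower stamen, and 1 to 14 higher carpel features. Assembly genes with opposite calls numbered 38 with DESeq2, 84 with voom, 10 with the shared spread and 11 to 59 with 1 library left out. The difference in detected features, Leaves minus Carpels S16, was -1135 without Carpels S16 replicate 3 and 1336 with it. The causes of these shifts were not tested.

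The shares of calls highest elsewhere in bracts or in younger carpels stayed between 57.9% and 78.7% and between 26.2% and 37.5%. DN47188, DN46319, DN36622 and DN47864 were called in all 15 alternatives, and DN45138_c1_g2_i3 and DN45138_c1_g2_i2 lost their calls in 9 and 11 of 15. Carpel replicate 3 has a total of 7364928 counts and few features at counts of 1 to 19, and 352 features at 10 CPM or more in both fellows are at 0 there, so a 0 in this library does not show that a feature was absent.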
